A study of Saccharomyces cerevisiae with 14 samples.

Results

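The genes described here are 37 cell cycle genes of budding yeast, Saccharomyces cerevisiae: cyclins, regulators of the cyclin-dependent kinase, cell cycle transcription factors and genes transcribed in a particular phase. They were chosen by symbol from a list and looked up in the annotation of a genome-wide array of PCR products with 5548 named genes. Each of the 37 had 1 feature with a value on all 14 arrays. They were divided by the phase in which their products are best known to act. The 9 G1 genes were CLN1, CLN2, CLN3, PCL1, PCL2, SWI4, SWI6, MBP1 and WHI5. The 8 S genes were CLB5, CLB6, RNR1, POL1, CDC6, CDC45, CDC21 and MCD1. The 11 G2/M genes were CLB1, CLB2, CLB3, CLB4, SWE1, CDC20, CDC5, NDD1, FKH1, FKH2 and MCM1. The 7 M/G1 genes were CDH1, SIC1, SWI5, PCL9, ASH1, EGT2 and CTS1. CDC28 and CKS1 act in all phases.

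The study asked, by its title, which genes depend for their transcription on which parts of TAF1, a subunit of the general transcription factor TFIID. The 7 groups, with 2 arrays each, were the construct strains DT1 (yjdi355), TF1 (yjdi357), HT4 (yjdi359) and PB1 (yjdi361), a strain labelled null (yjdi381), FHT-WT1 (yjdi353), whose label names the wild type, and a homotypic pair with the reference strain in both channels. Every array carried the reference strain yjdi363 in the other dye. The strain of the group was labelled with Cy5 for array 1 and with Cy3 for array 2. All cultures, the reference included, grew to an OD600 of 0.7 with 3% raffinose and no leucine, received 2% galactose for 30 min at 25 °C to induce the TAF1 forms, and were held at 37 °C for 45 min. The labels do not explain the codes of the constructs, give no further genotype, and leave unsaid whether separate cultures were used for array 1 and array 2. A p-value here sets a difference against the spread between arrays, and that spread may be only technical. The labels name no step that synchronised the cells, so each value is an average over a culture, and fewer cells in a phase and less RNA per cell cannot be told apart.

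The cell cycle is driven by the kinase Cdc28 bound to cyclins that come and go. Cln3 with Cdc28 relieves the inhibitor Whi5, which frees the transcription factors SBF (Swi4 with Swi6) and MBF (Mbp1 with Swi6) to transcribe the late G1 cyclins and the genes of DNA synthesis. The complex of Mcm1, a forkhead protein (Fkh2, with Fkh1 as its relative) and the coactivator Ndd1 then transcribes the mitotic genes of the CLB2 cluster. Among them is SWI5, whose product transcribes genes at the exit from mitosis and in early G1, where Sic1 and Cdh1 hold the kinase low until the next round. TFIID brings RNA polymerase II to promoters, and loss of TAF1 function is known from yeast work to affect passage through G1.

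The values are log2 ratios of polyA RNA in the strain over the reference, with the median of all named genes on each array set to 0. The direction, strain over reference, is assumed from TAF1 itself, which was lowest in the null strain at -3.52 and -3.46, against -0.063 and -0.63 in FHT-WT1. A difference between groups is given in log2 units ± SE (n = 2 arrays per group) from 1 limma model over all 14 arrays, with a term for dye orientation. A gene is called where the Benjamini-Hochberg adjusted p over the 5535 genes tested is under 0.05. The 5 comparisons with FHT-WT1 share its 2 arrays, as those with the null strain share its own. Each array had 6935 to 6971 features with a value. Across all genes the 2 arrays of a group correlated with r of 0.509 to 0.662 in HT4, PB1, DT1, TF1 and the null strain, and with -0.0059 in FHT-WT1 and -0.227 in the homotypic pair. Across the 37 members the same r was 0.58 in HT4, -0.036 in PB1, 0.40 in DT1, 0.53 in TF1, 0.30 in the null strain, -0.38 in FHT-WT1 and -0.12 in the homotypic pair. These r describe genes that share arrays and depth. The alpha-specific mating genes, 5 of 5 measured, had medians of -1.53 in HT4, -1.56 in PB1, -1.27 in DT1, -1.71 in TF1, -1.25 in the null strain, -0.47 in FHT-WT1 and 0.031 in the homotypic pair. The 7 a-specific genes had medians between -0.21 and -0.0024 in the 6 strains, and 0 of them were called against FHT-WT1. Of the alpha-specific genes 3 were called in HT4, 5 in PB1, 0 in DT1, 4 in TF1 and 3 in the null strain. The part of these differences between strains in the cell cycle values was not tested.

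Few cell cycle genes differed between strains beyond the spread of the arrays. Against FHT-WT1, FKH2 and MCM1, which encode DNA-binding proteins of the mitotic transcription complex, were higher in HT4, and no other member was called in any of the 5 strains. These 2 of 37 members are 5.41%, near the 4.90% of all genes called higher in HT4, where 11.7% were called in either direction. The count was 0 of 37 in DT1, TF1, PB1 and the null strain, where 0.903%, 3.72%, 7.35% and 6.0% of all genes were called. At an unadjusted p under 0.05, limma gave 6 members in HT4 (16.2%, against 28.6% of all genes), 5 in PB1 (13.5%, against 25.4%), 4 in DT1 (10.8%, against 17.4%), 3 in TF1 (8.11%, against 20.2%) and 3 in the null strain (8.11%, against 24.0%). Both arrays of a strain lay above or below both FHT-WT1 arrays for many genes. The share was 46.3%, 42.6%, 42.1%, 41.1% and 39.3% of all genes in HT4, PB1, DT1, TF1 and the null strain. Among members it was 35.1%, 29.7%, 24.3%, 35.1% and 18.9%, so such separation does not mark out a member. For separation from the null arrays it was 25.4%, 28.4%, 28.4% and 21.0% of all genes in HT4, PB1, DT1 and TF1. Against the null strain, FKH2 was the 1 member called in HT4, where 0.506% of all genes were called and 0.488% were called higher. There the count was 0 in DT1, TF1 and PB1, with 0.0723%, 0.0542% and 1.16% of all genes called. At an unadjusted p under 0.05 there were 5 members in HT4 (13.5%, against 11.5% of all genes), 8 in PB1 (21.6%, against 16.7%), 4 in DT1 (10.8%, against 10.1%) and 2 in TF1 (5.41%, against 5.96%). FHT-WT1 set against the homotypic pair gave 0 called members and a background of 0% (0 genes called, 274 at an unadjusted p under 0.05, of which 2 were members). In the moderated F test over the 6 strains, 4.01% of all genes were called, and FKH2 was the 1 member among them.

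**Figure D1:**
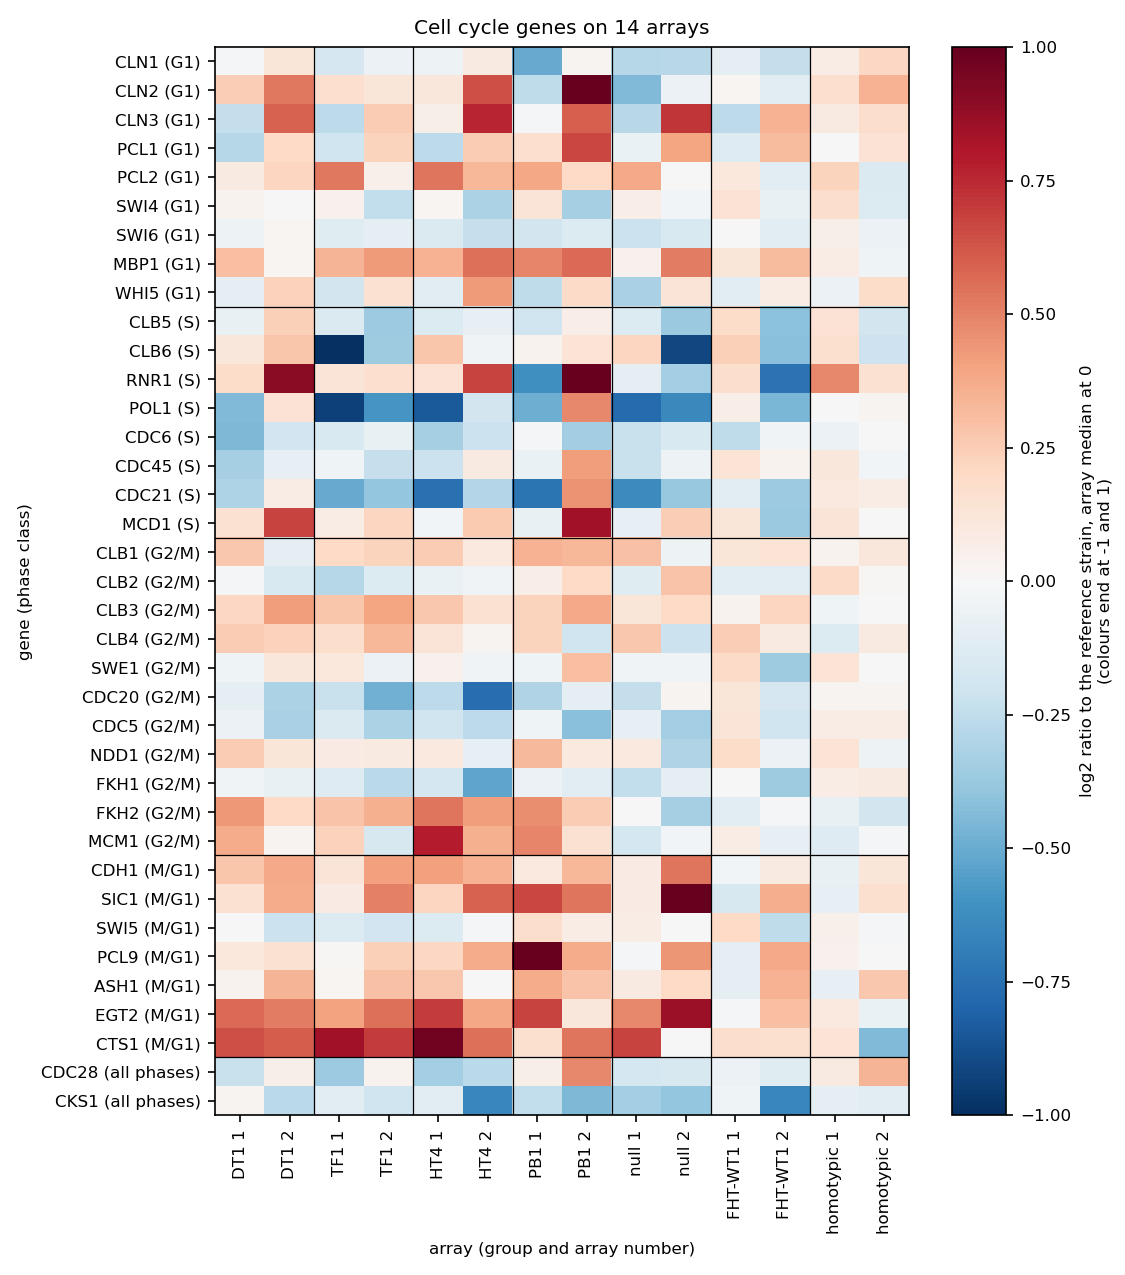
Log2 ratio to the reference strain, with the array median at 0, of the 37 cell cycle genes (rows, in phase classes) on the 14 arrays (columns, named by group and array number), on a colour scale that ends at -1 and 1. FKH2 is above 0 on all 8 arrays of the construct strains, and POL1 is below 0 on both arrays of TF1, HT4 and the null strain.

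On the centred arrays, FKH2 separated the 4 construct strains from the other arrays. FKH2 encodes the forkhead protein that recruits Ndd1 to mitotic promoters. Its log2 ratio was 0.53 and 0.42 in HT4, 0.47 and 0.25 in PB1, 0.43 and 0.20 in DT1 and 0.28 and 0.35 in TF1. It was 0.0036 and -0.33 in the null strain, -0.11 and -0.020 in FHT-WT1 and -0.073 and -0.19 in the homotypic pair. All 8 construct arrays lay above the 4 arrays of the null strain and FHT-WT1, which holds for FKH2 as the 1 member and for 0.397% of all genes. 0 members lay below on all 8, as 0.542% of all genes did. For FKH2 this order depends on the centring, which removed medians of 0.41 on null array 1 and -0.17 and -0.13 on the HT4 arrays. On the arrays as deposited, null array 1 lay above both HT4 arrays. HT4 exceeded FHT-WT1 by 0.54 ± 0.12, a 1.46-fold difference (limma, adjusted p = 0.0162), and the null strain by 0.64 ± 0.12 (limma, adjusted p = 0.04597). The other construct strains differed from FHT-WT1 by 0.38 ± 0.12 in DT1, 0.38 ± 0.12 in TF1 and 0.43 ± 0.12 in PB1, and were not called (limma, adjusted p = 0.149, 0.111 and 0.0551). The null strain differed from FHT-WT1 by -0.10 ± 0.12, with a 95% interval of -0.37 to 0.17. FKH2 was also the member with the largest F over the 6 strains, at 8.82 (limma, adjusted p = 0.0367). On the arrays as deposited its F was 1.72 (limma, adjusted p = 0.483), and without the dye term 5.97 (0.243). Fits that left out 1 array gave an F of 6.72 to 9.775, and the F call of FKH2 was lost in most of them.

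The FKH2 calls rested on single arrays, on the scaling and on the model. Leaving the arrays as deposited shifts every gene in HT4 against FHT-WT1 by -0.21, and the FKH2 difference was then 0.34 (limma, adjusted p = 0.414). Before any scaling, the spread (median absolute deviation) over genes was 0.15 and 0.21 on the FHT-WT1 arrays and 0.354 and 0.348 on the HT4 arrays. The FKH2 difference was 0.47 on arrays scaled to a common spread (0.141) and 0.48 after quantile normalization (0.184). It was not called without HT4 array 1 (limma, adjusted p = 0.0976), HT4 array 2 (0.0788) or FHT-WT1 array 1 (0.131), nor without the dye term (0.0913) or with only the 2 groups compared (0.06296). The call against the null strain was lost without the dye term (limma, adjusted p = 0.429) and with only the 2 groups compared (0.0855). It was kept in 1 of 14 fits that left out an array, the one without null array 1.

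MCM1 encodes the MADS-box factor that partners with forkhead proteins at mitotic promoters, and with other factors at early G1 and mating genes. Its log2 ratio was 0.79 and 0.36 in HT4, 0.49 and 0.15 in PB1, 0.37 and 0.029 in DT1 and 0.23 and -0.16 in TF1. It was -0.18 and -0.031 in the null strain, 0.072 and -0.083 in FHT-WT1 and -0.13 and -0.010 in the homotypic pair. Both arrays of HT4 and both of PB1 were above those of the null strain and FHT-WT1, while the arrays of TF1 overlapped with them. HT4 exceeded FHT-WT1 by 0.58 ± 0.15, a 1.49-fold difference (limma, adjusted p = 0.03197). This call was lost without either HT4 array (limma, adjusted p = 0.224 without array 1 and 0.0537 without array 2) or either FHT-WT1 array (0.137 and 0.101). It was also lost on arrays scaled to a common spread, after quantile normalization, with arrays as deposited, where the difference was 0.37 (adjusted p = 0.344), without the dye term (0.159) and with only the 2 groups compared (0.05455). The difference of HT4 from the null strain was 0.68 ± 0.15 and was not called (limma, adjusted p = 0.0979). MCM1 was higher in PB1 than in FHT-WT1 by 0.33 ± 0.15, without a call (limma, adjusted p = 0.206).

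FKH1 and NDD1, the other genes of the mitotic transcription complex, were not called in any comparison. FKH1, the forkhead paralogue, had -0.17 and -0.53 in HT4, against 0.0069 and -0.35 in FHT-WT1, a difference of -0.18 ± 0.13 that was not called. NDD1, the coactivator that mitotic kinases switch on, had 0.099 and -0.083 in HT4, against 0.18 and -0.056 in FHT-WT1. Its 95% interval for HT4 minus FHT-WT1 ran over -0.30 to 0.19. Values of NDD1 were higher in DT1 and PB1 than in the null strain, by 0.29 ± 0.11 and 0.31 ± 0.11, and were not called (limma, adjusted p = 0.404 and 0.207).

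**Figure D2:**
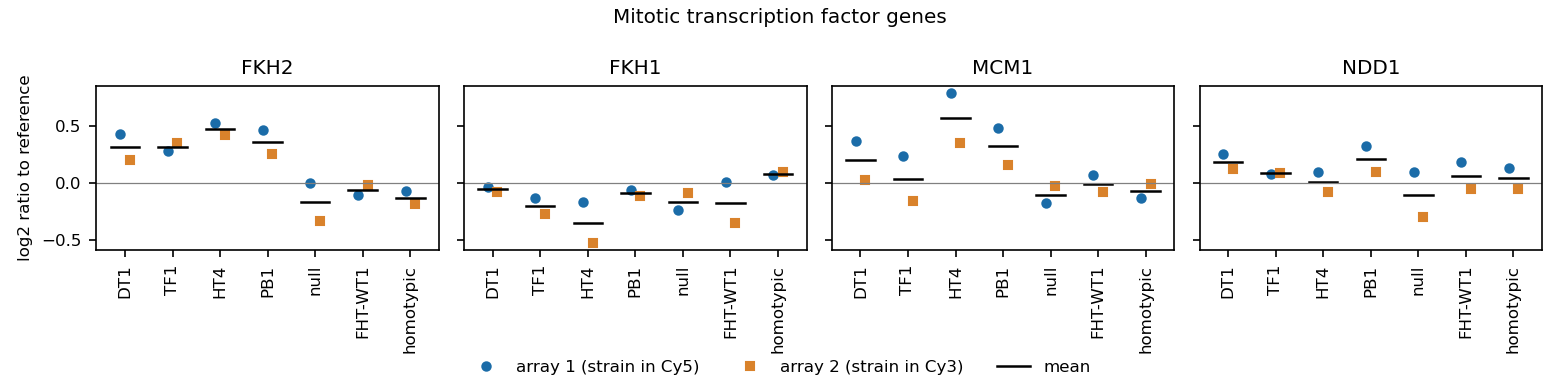
Log2 ratio to the reference strain, with the array median at 0, of FKH2, FKH1, MCM1 and NDD1 in the 7 groups, with array 1 as circles, array 2 as squares and their mean as a bar. The 8 construct arrays of FKH2 lie at 0.2009 or above, while its 6 other arrays lie at 0.0036 or below.

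The CLB2-cluster members, which this complex transcribes, were not called in any strain. CDC20, which activates the anaphase-promoting complex, had the largest F among them. It was -0.26 and -0.76 in HT4, -0.30 and -0.093 in PB1, -0.099 and -0.31 in DT1 and -0.22 and -0.48 in TF1. It was -0.24 and 0.026 in the null strain and 0.12 and -0.17 in FHT-WT1. Both HT4 arrays were below both FHT-WT1 arrays, by -0.49 ± 0.17 on average (limma, adjusted p = 0.0813), and the same was so in TF1, by -0.33 ± 0.17 (0.296). Both HT4 arrays were also below both null arrays. For CDC5, the polo kinase of mitosis, the differences from FHT-WT1 ran between -0.20 in TF1 and -0.16 in DT1, below 0 in all 5 strains. The mitotic B-type cyclin CLB2 differed from FHT-WT1 by 0.053 ± 0.14 in HT4, 0.24 ± 0.14 in PB1, 0.020 ± 0.14 in DT1, -0.11 ± 0.14 in TF1 and 0.19 ± 0.14 in the null strain, and CLB1, its paralogue, by -0.040 to 0.21 over the same strains. CLB3 and CLB4, the cyclins of early mitosis and spindle formation, differed by 0.038 to 0.21 and by -0.16 to 0.083. SWE1, the kinase that inhibits Cdc28 before mitosis, had the smallest F of the 37 members (0.359; limma, adjusted p = 0.907).

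Among the G1 genes, 0 of 9 were called in any comparison. PCL1, a G1 cyclin of the kinase Pho85, had the largest F of the class. It was -0.26 and 0.25 in HT4, 0.17 and 0.67 in PB1, -0.29 and 0.20 in DT1 and -0.20 and 0.22 in TF1. It was -0.068 and 0.39 in the null strain, -0.13 and 0.31 in FHT-WT1 and 0.0060 and 0.14 in the homotypic pair. Array 2, with the strain in Cy3, was above array 1 in each of the 6 strains, by 0.42 to 0.52. With orientation in the model, PB1 exceeded FHT-WT1 by 0.32 ± 0.11 (limma, adjusted p = 0.106). CLN3, the G1 cyclin that relieves the inhibitor Whi5, and WHI5 were likewise higher on array 2 in all 6 strains. SWI4, CDC5 and CKS1 were lower on array 2 in all 6. The share of all genes with such a shift in all 6 strains was not counted, so no trait of these members is read from it.

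PCL2, another G1 cyclin of Pho85, was 0.54 and 0.33 in HT4, 0.39 and 0.20 in PB1, 0.093 and 0.22 in DT1 and 0.52 and 0.048 in TF1. It was 0.38 and 0.0043 in the null strain and 0.11 and -0.10 in FHT-WT1. Both HT4 arrays and both PB1 arrays were above both FHT-WT1 arrays. HT4 exceeded FHT-WT1 by 0.43 ± 0.14, just outside the threshold (limma, adjusted p = 0.0589).

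CLN2, a late G1 cyclin, was 0.11 and 0.65 in HT4, -0.25 and 1.07 in PB1, 0.25 and 0.53 in DT1 and 0.16 and 0.12 in TF1. It was -0.44 and -0.060 in the null strain and 0.017 and -0.10 in FHT-WT1. Both arrays of HT4, DT1 and TF1 were above both FHT-WT1 arrays, and the PB1 arrays were far apart, on either side of them. CLN2 exceeded the null strain by 0.64 ± 0.26 in DT1, 0.63 ± 0.26 in HT4 and 0.66 ± 0.26 in PB1, and was not called (limma, adjusted p = 0.428, 0.362 and 0.231). Its paralogue CLN1 exceeded the null strain by 0.33 ± 0.14 in DT1 and 0.30 ± 0.14 in HT4. PCR products of such paralogues can bind each other's transcripts, and whether the pair shares signal was not tested.

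The regulators of G1 transcription were not called. SWI6, the shared subunit of SBF and MBF, differed from FHT-WT1 by -0.13 to 0.040 over the 5 strains, with the smallest SE of the members (0.103). SWI4, the DNA-binding subunit of SBF, ran between -0.18 in HT4 and -0.012 in the null strain. For MBP1, the DNA-binding subunit of MBF, the difference was 0.23 ± 0.15 in HT4 and 0.31 ± 0.15 in PB1, and 0 of these was called. CLN3 differed by 0.37 ± 0.17 in HT4 (limma, adjusted p = 0.177) and WHI5 by 0.18 ± 0.11.

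Of the S genes, 0 of 8 were called. POL1, the catalytic subunit of DNA polymerase alpha with primase, was -0.84 and -0.19 in HT4, -0.48 and 0.48 in PB1, -0.44 and 0.14 in DT1 and -0.93 and -0.59 in TF1. It was -0.77 and -0.65 in the null strain, 0.070 and -0.46 in FHT-WT1 and -0.0008 and 0.024 in the homotypic pair. Both arrays of TF1 and of the null strain were below both FHT-WT1 arrays. The differences were -0.57 ± 0.26 in TF1 and -0.52 ± 0.26 in the null strain (limma, adjusted p = 0.251 and 0.2504), against an SE larger than the median of 0.153 over the members. Against the null strain, PB1 was higher by 0.71 ± 0.26 (limma, adjusted p = 0.217).

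CLB6, an S phase cyclin, gave the most extreme single value. It was 0.28 and -0.034 in HT4, 0.031 and 0.14 in PB1, 0.12 and 0.28 in DT1 and -3.22 and -0.35 in TF1. It was 0.22 and -0.91 in the null strain, 0.24 and -0.41 in FHT-WT1 and 0.16 and -0.21 in the homotypic pair. The 2 TF1 arrays disagreed, and TF1 array 2 overlapped with FHT-WT1. The mean difference in TF1 was -1.70 ± 0.66, with the largest SE of the members, and was not called (limma, adjusted p = 0.177). Without TF1 array 1 the difference from FHT-WT1 was -0.083, and without TF1 array 2 it was -3.32 and was called, as it also was on the arrays as deposited (limma, adjusted p = 0.00123). A low CLB6 level in TF1 thus rests on 1 array. CLB5, its paralogue, had -0.14 and -0.36 in TF1, against 0.19 and -0.41 in FHT-WT1.

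CDC45, the helicase cofactor that starts replication, was -0.22 and 0.093 in HT4, -0.065 and 0.42 in PB1, -0.33 and -0.082 in DT1 and -0.045 and -0.23 in TF1. It was -0.22 and -0.052 in the null strain and 0.14 and 0.034 in FHT-WT1. Both arrays of DT1, TF1 and the null strain were below both FHT-WT1 arrays, by -0.29 ± 0.16, -0.22 ± 0.16 and -0.22 ± 0.16, and 0 of these differences were called (limma, adjusted p = 0.364, 0.458 and 0.407). RNR1, the large subunit of ribonucleotide reductase, was 0.18 and 0.90 in DT1, -0.61 and 1.11 in PB1 and 0.18 and -0.74 in FHT-WT1, so the arrays of each group differed widely. Both DT1 arrays were above FHT-WT1, by 0.83 ± 0.44, without a call (limma, adjusted p = 0.354). MCD1, a cohesin subunit, was higher in DT1 than in FHT-WT1 by 0.54 ± 0.24, without a call (limma, adjusted p = 0.283). CDC21, thymidylate synthase, differed from FHT-WT1 by -0.28 in HT4 to 0.12 in DT1, and CDC6, the replication licensing factor, by -0.18 to 0.027 over the 5 strains.

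With the arrays centred, the M/G1 genes lay mostly above FHT-WT1. Leaving the arrays as deposited shifts every gene by -0.16 in DT1, where the M/G1 median was 0.16. The same shift is -0.21 in HT4, where the median was 0.30, and 0.029 to 0.065 in TF1, PB1 and the null strain. Against FHT-WT1, 6 of 7 were above 0 in HT4, 7 in PB1, 5 in DT1, 5 in TF1 and 7 in the null strain. In each of these strains 0 of 7 were called, and 48.0% to 49.1% of all genes were above 0. Of all 37 members, 59.5% were above 0 in HT4, 78.4% in PB1, 73.0% in DT1, 56.8% in TF1 and 45.9% in the null strain. FHT-WT1 was itself above the homotypic pair in 6 of 7 M/G1 genes, as in 52.0% of all genes. CTS1, the chitinase that separates daughter cells, was 0.97 and 0.55 in HT4, 0.16 and 0.53 in PB1, 0.64 and 0.61 in DT1 and 0.84 and 0.70 in TF1. It was 0.67 and -0.0018 in the null strain, 0.17 and 0.16 in FHT-WT1 and 0.14 and -0.44 in the homotypic pair. Both arrays of DT1, TF1 and HT4 were above both FHT-WT1 arrays, by 0.45 ± 0.21, 0.60 ± 0.21 and 0.59 ± 0.21 on average (limma, adjusted p = 0.283, 0.135 and 0.0853).

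SIC1, the inhibitor of Cdc28 bound to B-type cyclins, was 0.21 and 0.59 in HT4, 0.67 and 0.54 in PB1, 0.15 and 0.37 in DT1 and 0.084 and 0.50 in TF1. It was 0.085 and 0.997 in the null strain and -0.16 and 0.36 in FHT-WT1. Both PB1 arrays were above both FHT-WT1 arrays, by 0.50 ± 0.18 (limma, adjusted p = 0.118). The null arrays were far apart, and the difference there was 0.44 ± 0.18 (limma, adjusted p = 0.172).

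PCL9, a Pho85 cyclin of early G1, was 0.21 and 0.37 in HT4, 1.26 and 0.37 in PB1, 0.10 and 0.15 in DT1 and 0.013 and 0.24 in TF1. It was -0.015 and 0.45 in the null strain and -0.096 and 0.38 in FHT-WT1. The highest value was PB1 array 1, while PB1 array 2 lay level with FHT-WT1 array 2. The difference between PB1 and FHT-WT1 was 0.68 ± 0.25 (limma, adjusted p = 0.117). EGT2, a cell wall protein of early G1, was 0.48 and 0.86 in the null strain, against -0.019 and 0.30 in FHT-WT1, a difference of 0.53 ± 0.20 (limma, adjusted p = 0.131). In the construct strains EGT2 differed from FHT-WT1 by 0.25 to 0.40. CDH1, the activator of the anaphase-promoting complex in G1, differed from FHT-WT1 by 0.35 ± 0.12 in HT4, 0.19 ± 0.12 in PB1, 0.30 ± 0.12 in DT1, 0.24 ± 0.12 in TF1 and 0.28 ± 0.12 in the null strain. ASH1, the daughter-specific repressor of mating type switching, differed by 0.013 to 0.20, and SWI5, the factor that transcribes several of these genes, by -0.14 in TF1 to 0.16 in PB1.

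**Figure D3:**
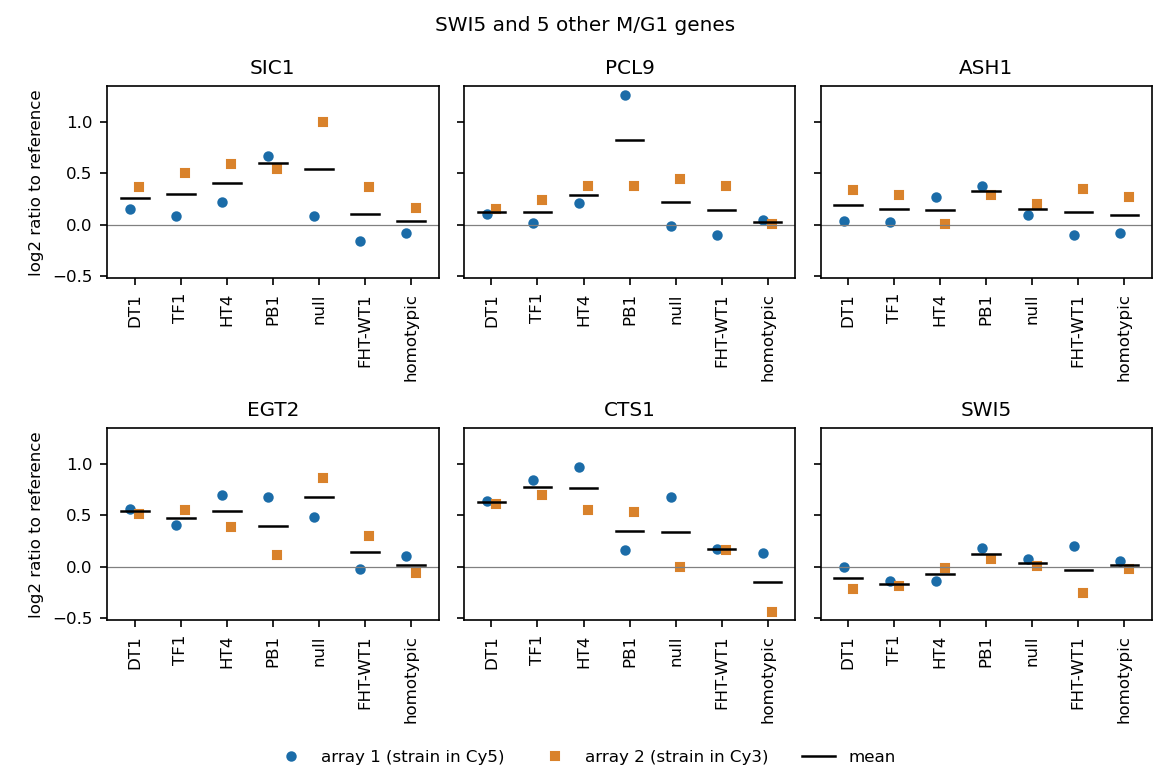
Log2 ratio to the reference strain, with the array median at 0, of the M/G1 genes SIC1, PCL9, ASH1, EGT2, CTS1 and SWI5 in the 7 groups, with array 1 as circles, array 2 as squares and their mean as a bar. CTS1 in DT1, TF1 and HT4 lies above FHT-WT1 on both arrays, while the arrays of SIC1 in the null strain and of PCL9 in PB1 are far apart.

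CDC28, the kinase itself, was -0.34 and -0.27 in HT4, 0.059 and 0.48 in PB1, -0.23 and 0.060 in DT1 and -0.36 and 0.039 in TF1. It was -0.18 and -0.16 in the null strain and -0.059 and -0.12 in FHT-WT1. Both PB1 arrays were above both FHT-WT1 arrays and both null arrays, by 0.36 ± 0.13 and 0.44 ± 0.13 on average (limma, adjusted p = 0.118 and 0.141). Both HT4 arrays were below both FHT-WT1 arrays, by -0.21 ± 0.13 (limma, adjusted p = 0.313), and both null arrays. CKS1, the small subunit of the kinase, was -0.11 and -0.65 in HT4, -0.24 and -0.45 in PB1, -0.34 and -0.38 in the null strain and -0.043 and -0.66 in FHT-WT1. Its 2 FHT-WT1 arrays spanned all arrays of the null strain, HT4, PB1 and TF1.

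The phase classes were then set side by side by the median difference of their members, as a description without a test. Over all genes tested this median was -0.0093 in HT4, -0.0074 in PB1, -0.0095 in DT1, -0.0083 in TF1 and -0.012 in the null strain, each against FHT-WT1. The G1 class had medians of 0.18 in HT4, 0.25 in PB1, 0.088 in DT1, 0.0050 in TF1 and -0.012 in the null strain. For the S class they were -0.065, 0.13, 0.16, -0.17 and -0.18 in the same order. The G2/M class lay between -0.083 in the null strain and 0.18 in PB1. In the M/G1 class the medians were 0.30 in HT4, 0.20 in PB1, 0.16 in DT1, 0.19 in TF1 and 0.17 in the null strain. The M/G1 median was the highest of the 4 classes in DT1, TF1, HT4 and the null strain, and the G1 median was in PB1. The S median was the lowest in TF1, HT4, PB1 and the null strain, and the G1 median was in DT1. With 1 array left out, the S median ran from -0.18 to 0.51 in PB1 and from -0.39 to 0.028 in TF1. The order of the classes in PB1 thus depended on single arrays. Members of a class overlapped widely between classes in every strain.

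**Figure D4:**
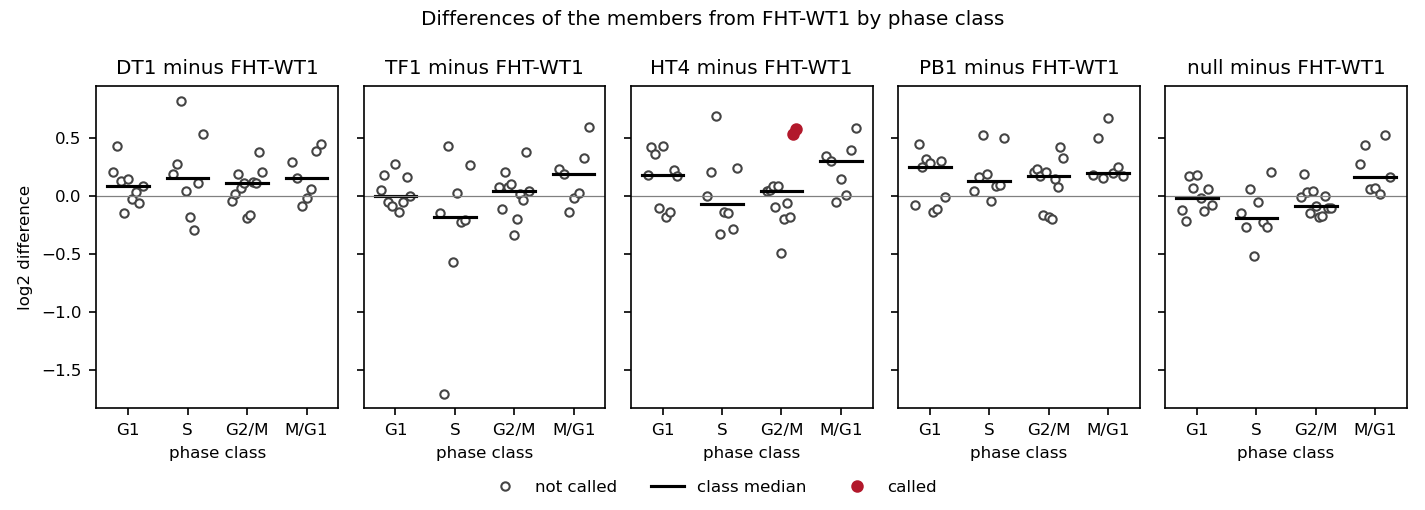
Log2 difference from FHT-WT1 of each cell cycle gene in HT4, PB1, DT1, TF1 and the null strain, by phase class, with the class median as a bar and called genes filled. FKH2 and MCM1 in HT4 are the filled points, and CLB6 in TF1 is the lowest at -1.70.

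Set against the null strain, the S class had medians above 0 in the construct strains, of 0.11 in HT4, 0.34 in PB1, 0.36 in DT1 and 0.032 in TF1. In PB1, 8 of 8 S genes were above 0, as 51.0% of all genes were, with differences of 0.002325 to 0.71, and 0 of them were called. The S median was -0.13 on PB1 array 1 and 0.43 on PB1 array 2, against -0.18 and -0.36 in the null strain. The G1 medians were 0.20, 0.079, -0.0076 and 0.079 in HT4, PB1, DT1 and TF1. The G2/M medians were 0.051, 0.14, 0.11 and 0.086, and those of M/G1 -0.0096, 0.060, -0.089 and -0.090. The M/G1 genes, which were above FHT-WT1 in the null strain too, thus had no common direction against the null strain.

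Grouped by the factor that transcribes them, 12 members were SBF or MBF targets, 5 were CLB2-cluster genes and 3 were early G1 genes with an Mcm1 box. The SBF/MBF class was CLN1, CLN2, PCL1, PCL2, CLB5, CLB6, SWE1, RNR1, POL1, CDC45, CDC21 and MCD1. Its median against FHT-WT1 was 0.14 in HT4 (8 of 12 above 0), 0.20 in PB1 (11), 0.17 in DT1 (10), -0.016 in TF1 (6) and -0.13 in the null strain (5). Against the null strain, 12 of 12 were above 0 in PB1, with a median of 0.31 and 0 called. The class median was -0.13 on PB1 array 1 and 0.43 on PB1 array 2, against -0.12 and -0.17 in the null strain. The arrays of the pair of strains did not overlap for 1 of the 12, as for 28.4% of all genes. The CLB2-cluster class had medians of -0.048 in HT4, 0.16 in PB1, -0.082 in DT1, -0.14 in TF1 and -0.0029 in the null strain.

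The SBF/MBF class shifted between the 2 arrays in some of the groups. In FHT-WT1, 11 of 12 were lower on array 2, with a median of 0.11 on array 1 and -0.36 on array 2, where 51.8% of all genes were lower. In PB1, 11 of 12 were higher on array 2, where 48.3% of all genes were higher. In DT1, 12 of 12 were higher on array 2, with medians of -0.034 and 0.21, where 49.0% of all genes were higher. In the other groups the split was nearer to even, with 9 of 12 higher on array 2 in HT4, 8 in the null strain, 7 in TF1 and 4 in the homotypic pair, where 50.1% to 50.8% of all genes were higher. Array number and dye orientation are the same in this design and cannot be told apart within a pair. Of 38 genes listed as other SBF/MBF targets, cell wall and budding genes included, 30 (78.9%) were lower on array 2 in FHT-WT1. Of the same 38, 25 (65.8%) were higher on array 2 in HT4, 29 (76.3%) in PB1, 27 (71.1%) in DT1, 16 (42.1%) in TF1, 15 (39.5%) in the null strain, and 18 (47.4%) were so on the homotypic pair. The spread of the FHT-WT1 pair enters every difference from FHT-WT1 in these genes. The cause of these shifts was not tested.

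**Figure D5:**
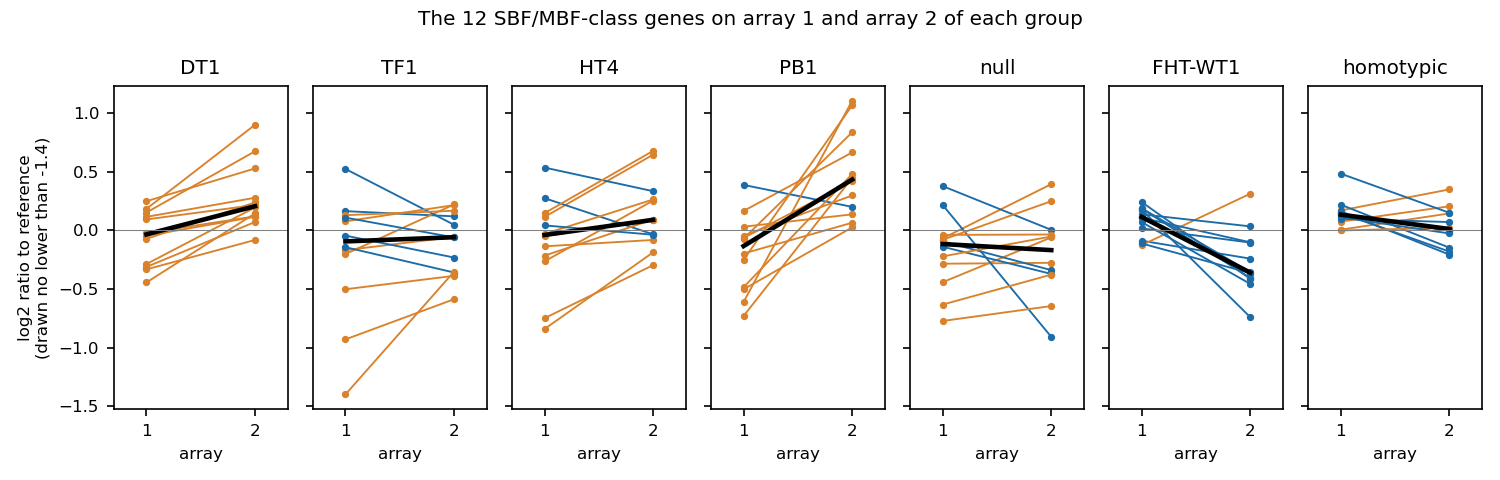
Log2 ratio to the reference strain, with the array median at 0, of the 12 SBF/MBF-class genes on array 1 and array 2 of the 7 groups. Each gene is a line, orange where array 2 is higher and blue where it is lower, the class median is the thick black line, and CLB6 on TF1 array 1 is drawn at -1.4 in place of -3.22. The class median is lower on array 2 in FHT-WT1 and higher on array 2 in PB1.

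Other cell cycle genes outside the 37 were read in 5 lists. In the list of 19 other CLB2-cluster genes, 1 gene was called lower in DT1 and 2 in TF1. HT4 had 1 called higher and 2 lower there, PB1 had 1 higher and 1 lower, and the null strain had 2 lower. These are 15.8% of the list in HT4, 10.5% in PB1, 5.26% in DT1, 10.5% in TF1 and 10.5% in the null strain, against 11.7%, 7.35%, 0.903%, 3.72% and 6.0% of all genes. SPO12, a regulator of mitotic exit, fell in all 5 strains against the same FHT-WT1 arrays. Its difference was -0.80 ± 0.11 in HT4, -0.53 ± 0.11 in PB1, -0.70 ± 0.11 in DT1, -0.63 ± 0.11 in TF1 and -0.58 ± 0.11 in the null strain (limma, adjusted p between 0.00226 and 0.0219). MYO1, the myosin of the contractile ring, fell by 0.57 in TF1, by 0.68 in HT4 and by 0.58 in the null strain. PMP1, a regulator of the plasma membrane proton pump, rose by 0.71 in HT4, and AMN1, an antagonist of mitotic exit, rose by 0.59 in PB1 against FHT-WT1 and by 0.67 against the null strain.

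The anaphase-promoting complex and mitotic exit list held 22 genes. APC11, the catalytic RING subunit of the complex, fell by 0.51 in TF1, by 0.58 in HT4, by 0.71 in PB1 and by 0.58 in the null strain (limma, adjusted p between 0.00869 and 0.0486). SWM1, another subunit, fell by 0.45 in HT4, and 0 genes of the list were called higher in any of the 5 strains. The calls are 9.09% of the list in HT4 and 4.55% each in PB1, TF1 and the null strain, against 11.7%, 7.35%, 3.72% and 6.0% of all genes. In the list of other SBF/MBF targets, HT4 had 2 of 38 called higher and 3 lower (13.2%), where 11.7% of all genes were called. The lower ones were DPB3, a subunit of DNA polymerase epsilon (-0.66 ± 0.13), RFA3, a subunit of replication protein A (-0.58 ± 0.15), and TOS4, a forkhead-associated protein (-0.51 ± 0.14), which also fell in the null strain (-0.56 ± 0.14). PDS5, a cohesin-associated protein, was higher (0.55 ± 0.12).

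The list of 20 other kinase regulators and cyclins was called in PB1 alone of the 5 strains, with 2 genes higher and 1 lower (15.0%, against 7.35% of all genes), and whether PB1 differed from the other strains in this was not tested. PCL10, a Pho85 cyclin that acts on glycogen synthase, rose by 0.86 ± 0.15 in PB1 (limma, adjusted p = 0.00833) and by 1.05 ± 0.15 against the null strain (0.00629). HSL1, a kinase that promotes Swe1 degradation, rose by 0.54 ± 0.14, and SKP1, the core subunit of SCF ubiquitin ligases, fell by 0.44. ORC6, of the origin recognition complex, was the 1 called gene of 14 (7.14%) in the replication licensing list, higher in PB1 by 0.59 ± 0.15. Without the dye term, 3 of the 26 calls named from the 5 lists were kept, and 9 with only the 2 groups compared. Of the 26 calls named from the 5 lists, 26 kept their sign under every alternative, but 4 remained called without array 1 of FHT-WT1, 14 without its array 2, 8 on the arrays as deposited, 1 on arrays scaled to a common spread and 0 after quantile normalization.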

How the data were processed

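PolyA RNA of 7 groups was measured on 14 two-channel arrays. The table the authors deposited holds log2 ratios of strain and reference, normalised by the mode in R and corrected with B. subtilis spikes, per the labels' series text. The 7056 features included 5579 with a gene name, for 5548 genes, and 0 columns were left without a sample. Each array was centred here on the median of its named genes. A linear model of 7 groups plus dye orientation was fitted with limma 3.58.1 (lmFit and eBayes, under R 4.3.3) to 5535 genes, those without a missing array, two-sided, with Benjamini-Hochberg adjustment and a threshold of 0.05. The model was checked on simulated data. It had 6 residual and 5.98 prior degrees of freedom and a median SE of 0.133, and the number of arrays limits the precision. The dye swap pairs array 1 and array 2 by design, and the labels give no other pairing. The homotypic pair has the reference in both channels, so its arrays took the orientation term by array number.

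The members and lists were chosen with earlier results of these data known. Values per array are given for each called member and for the 3 members of each phase class with the largest F. From 115 related genes, of which 2 had no feature, up to 4 called genes per list and comparison are named. A gene in several lists counts in each. One class of members and one list by transcription factor are not reported here. Alternatives were no centring, scaling to a common spread, quantile normalization, no dye term, only the 2 groups compared, robust eBayes, genes with missing arrays, homotypic array 2 reversed, and each array left out. A fit without the FHT-WT1 and homotypic arrays was added after seeing the data. No sequence or coordinate is given, since the genome build is not given in the sources used here.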

Additional observations from a re-analysis of the deposited data

How the results depend on the processing

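Counts that were 0 in the model used could only stay or rise. In both HT4 comparisons the count of called members fell under each change of scale. For HT4 against FHT-WT1 it was 0 on arrays as deposited, on arrays scaled to a common spread, after quantile normalization, without the dye term and with only the 2 groups compared. The count of all called genes there was 648 in the model used and 341, 23, 4, 98 and 327 under these alternatives. For HT4 against the null strain the count of members was 0 under the same alternatives, with homotypic array 2 reversed and without the FHT-WT1 and homotypic arrays. In the F test it was 0 with scaled arrays, after quantile normalization, without the dye term, with homotypic array 2 reversed and without the FHT-WT1 and homotypic arrays, where FKH2 had a limma adjusted p of 0.179. On arrays as deposited the 1 member called in the F test was CLB6, as it was the 1 member called in TF1 against FHT-WT1 and against the null strain. With only the 2 groups compared, 5 members were called in TF1 against FHT-WT1 (CLB6, RNR1, POL1, FKH2 and CTS1), and 1, RNR1, in DT1 against the null strain and in FHT-WT1 against the homotypic pair. Leaving out 1 array gave 0 to 1 called members in TF1, 0 to 3 in HT4, 0 to 2 in PB1 and 0 to 2 in the null strain against FHT-WT1, 0 to 1 in TF1, HT4 and PB1 against the null strain, and 0 to 2 in the F test. The dye orientations pair the arrays, so the fit without the dye term is the one without a replicate block, and with it 0 members were called in HT4. With quantile normalization the count of all called genes was 3 in DT1, 2 in TF1, 13 in PB1 and 1 in the null strain against FHT-WT1, where it was 50, 206, 407 and 332 in the model used. For FHT-WT1 against the homotypic pair that count was 0 in the model used, 8 on scaled arrays and 28 after quantile normalization. Robust eBayes and the looser filter on missing arrays left each count of called members as it was.

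Among single differences, CLB6 in TF1 against the null strain ran from -3.06 without TF1 array 2 to 0.18 without TF1 array 1. Without centring, every gene's difference shifts by the same amount, which was -0.16 in DT1 and -0.21 in HT4 against FHT-WT1, -0.22 in DT1 and -0.26 in HT4 against the null strain, and -0.22 in FHT-WT1 against the homotypic pair. The as-deposited values restate that shift. With it, WHI5 in HT4 against the null strain was -0.012, and the phase medians against FHT-WT1 were -0.072 (G1) and -0.042 (G2/M) in DT1, and -0.021 (G1), -0.16 (G2/M) and 0.097 (M/G1) in HT4. Against the null strain they were -0.23 (G1), 0.14 (S), -0.11 (G2/M) and -0.31 (M/G1) in DT1, and -0.070 (G1), -0.15 (S), -0.21 (G2/M) and -0.27 (M/G1) in HT4. FHT-WT1 against the homotypic pair gave -0.27 (G1), -0.19 (G2/M) and -0.16 (M/G1) as deposited, and 0.046 (G1) with homotypic array 2 reversed. With scaled arrays PB1 had medians of 0.088 (G1) and 0.066 (G2/M) against FHT-WT1 and 0.103 (G2/M) against the null strain. After quantile normalization they were 0.097 (G1) and, against the null strain, 0.1045 (G2/M). Leaving out 1 array, medians against FHT-WT1 ran from -0.12 to 0.51 (S) in DT1, from -0.25 to 0.23 (S) and -0.082 to 0.068 (G2/M) in HT4, from -0.0089 to 0.25 (G1) and 0.16 to 0.37 (M/G1) in PB1, and from -0.51 to 0.097 (S) and -0.14 to 0.029 (G2/M) in the null strain. Against the null strain they ran from -0.0076 to 0.18 (G1) and 0.083 to 0.20 (G2/M) in DT1, from -0.0215 to 0.24 (G1) and -0.0070 to 0.21 (S) in HT4, and from 0.036 to 0.615 (S) and 0.10 to 0.19 (G2/M) in PB1. For FHT-WT1 against the homotypic pair they ran from -0.15 to 0.040 (G1) and -0.55 to 0.18 (S). These are only the medians that moved by at least the spread of the class median between arrays. Medians left out here can range as widely, as S did in PB1 against FHT-WT1, from -0.18 to 0.51. The causes of these changes were not tested.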
